A study of Mus musculus with 4 samples.

Results

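Crem encodes the cAMP-responsive element modulator, a leucine-zipper transcription factor of the CREB family, and 9 of its transcripts were among the 11304 transcripts of 7452 genes in the authors' table of differential transcripts. The members were all rows of that table with the gene symbol Crem, and each was told from the others by its Ensembl transcript identifier and its length. RNA came from the left testis of C57BL/6 mice at postnatal day 56. The Ppp2ca-cKO group (2 libraries) is labelled with the genotype Ppp2ca-/-, and the other group (WT, 2 libraries) is labelled wild type. Ppp2ca encodes the catalytic alpha subunit of protein phosphatase 2A, whose loss was not measured here. Neither the Cre line nor the cells in which it acts is stated in the labels. Nothing in the labels says that the 2 libraries of a genotype came from separate animals, so each p-value reflects only how far these libraries differ, which may be technical.

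CREM binds cAMP response elements in promoters, and phosphorylation of its kinase-inducible domain recruits coactivators. Its gene makes activators and repressors from the same exons. Forms with the glutamine-rich exons tau1 and tau2 can activate, forms without them repress, and the short repressors called ICER start from an internal promoter. In mouse testis, premeiotic germ cells make mainly repressor forms, and late spermatocytes and round spermatids make the tau activators. Male mice without Crem halt spermatogenesis at the round spermatid stage. The testis coactivator FHL5 (also called ACT) lets CREM act there without phosphorylation.

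The summed level of the listed Crem transcripts was lower in Ppp2ca-cKO testes than in WT testes. Each of the 9 transcripts was lower in both cKO libraries than in both WT libraries. So were 67.4% of the 10716 listed transcripts that passed the filter on low counts, and the authors had already called every listed transcript. The 9 transcripts added up to 59.6 and 80.9 FPKM in the Ppp2ca-cKO libraries, against 202.0 and 198.6 FPKM in the WT libraries. FPKM scale fragments to transcript length and library total, so they can be added and compared between transcripts. The mean was 70.3 ± 15.1 FPKM in cKO and 200.3 ± 2.44 FPKM in WT (SD, n = 2 each), 2.85-fold lower in cKO. The groups did not overlap, and the exact two-sided permutation test over samples gave p = 0.333, the smallest that 2 libraries against 2 allow. As normalized counts, which are expected counts divided by the authors' size factors, the sums were 548 and 818 in cKO and 2991 and 3317 in WT, 4.62-fold lower in cKO. The units differ in scaling. The size factors were 1.24 and 1.25 in cKO and 0.818 and 0.854 in WT, and the library totals recovered from FPKM were 18684658 and 19834791 fragments in cKO and 17612040 and 19783583 fragments in WT. In whole testis, fewer cells of a type and less RNA per cell cannot be told apart.

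The table is a selection. In the authors' deposited table no row has an adjusted p above 0.05 or a log2 fold change between -1 and 1, and 66.95% of the rows are lower in cKO. The listed rows took 24.4% and 25.5% of all fragments in the cKO libraries, against 43.3% and 44.5% in the WT libraries. The median log2 fold change (cKO over WT) of the 10716 transcripts that passed the filter on low counts was -1.70, and each Crem value below has to be read against it. Of those transcripts, 41.3% were called lower in cKO and 10.4% higher. No transcript of Ppp2ca or of its close paralogue Ppp2cb is listed, so the deletion could not be checked against its target here. Markers of germ cells, Sertoli cells and Leydig cells were all detected in these testis libraries. Listed markers of round spermatids (11 of 12), elongating spermatids (10 of 11) and spermatocytes (3 of 6) fell in cKO and none rose. Among the listed markers, 5 of 11 for Sertoli cells, 4 of 4 for Leydig cells and 2 of 4 for leukocytes rose and none fell. These counts hold only listed markers, which the authors had already called. Not listed were 5 spermatocyte (Sycp1, Sycp2, Sycp3, Spo11, Hist1h1t), 3 Leydig (Hsd3b1, Star, Insl3) and 2 spermatogonial markers (Gfra1, Uchl1). The same held for 1 Sertoli (Rhox5) and 2 leukocyte markers (Adgre1, Cd14). None of the 5 listed spermatogonial markers passed edgeR's quasi-likelihood test. DESeq2 called 3 of them higher, and 2042 of all 11304 transcripts. With edgeR the unadjusted p was under 0.05 in all 5, as in 10713 of all 10716 transcripts tested. The marker counts depend on the scaling. Under TMM, 8 round spermatid, 8 elongating spermatid and 1 spermatocyte markers were called lower, and all 11 Sertoli, 4 Leydig, 4 leukocyte and 5 spermatogonial markers higher. Over all 10553 transcripts tested under TMM, 1233 were called lower and 3606 higher. With equal summed Sertoli counts, all 12, 11 and 6 of the germ cell markers named first were called lower. Higher were then 0 Sertoli, 1 Leydig, 0 leukocyte and 0 spermatogonial markers. Over all 10765 transcripts tested with that scaling, 7411 were called lower and 325 higher. No call of these markers by edgeR held without either WT library. Without WT replicate 1 or 2, the median log2 fold change was -3.267 or -2.901 for round spermatid markers. For spermatogonial markers it was 1.225 or 1.758.

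Crem lies on the minus strand of chromosome 18 (GRCm38, ENSMUSG00000063889, chr18:3266048-3337748). Of the 39 transcripts that GENCODE vM21 annotates for it, 30 were not listed and are not analysed here. The lengths of the 9 listed transcripts equal those of the annotation. The longest, Crem-228 (ENSMUST00000150235, 2662 bases), has 10 exons and 357 codons. Its exon 4 is 147 bases long with 9 glutamine codons of 49 (18.4%), and its exon 7 is 189 bases long with 10 of 63 (15.9%), against 8.96% glutamine over all codons. Exon 3 has a like share, 6 of 39 (15.4%). From their place and lengths, exons 4 and 7 are taken here as tau1 and tau2, and the glutamine-rich exons below are these. Exon 5 holds the codons of the kinase target site of the kinase-inducible domain, exon 8 is the 36-base gamma exon, and exon 9 encodes part of the DNA-binding domain. One other gene, Gm6225, overlaps Crem on the opposite strand. It touches 2 exon entries of the listed transcripts, and since the labels do not say whether counting used strand, its reads cannot be told from theirs.

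Listed transcripts fall into 4 kinds by their 5′ end. Crem-228 and Crem-215 (ENSMUST00000134027, 1553 bases) begin at the upstream exons, and Crem-215 is annotated for nonsense-mediated decay and lacks both glutamine-rich exons. Crem-208 (ENSMUST00000127601, 1024 bases) and Crem-212 (ENSMUST00000130599, 764 bases) begin in exon 3. Both of them, and Crem-215 too, have no annotated start, so their true 5′ ends are unknown. Crem-208 holds both glutamine-rich exons and Crem-212 neither. Crem-236 (ENSMUST00000154715, 1167 bases, 329 codons) and Crem-222 (ENSMUST00000144496, 978 bases, 280 codons) share an intermediate start. Crem-236 holds both glutamine-rich exons and ends in an earlier terminal exon, whereas Crem-222 holds only the second and ends in the later one. Crem-210 (ENSMUST00000130047, 953 bases, retained intron), Crem-238 (ENSMUST00000156929, 290 bases) and Crem-226 (ENSMUST00000149266, 842 bases) begin internally and have no annotated coding sequence and no DNA-binding exon. None of the 7 annotated transcripts with an ICER-type start was listed. No exon is common to all 9, but each shares exon sequence with others of them, so the split of reads is the authors' estimate.

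**Figure D1:**
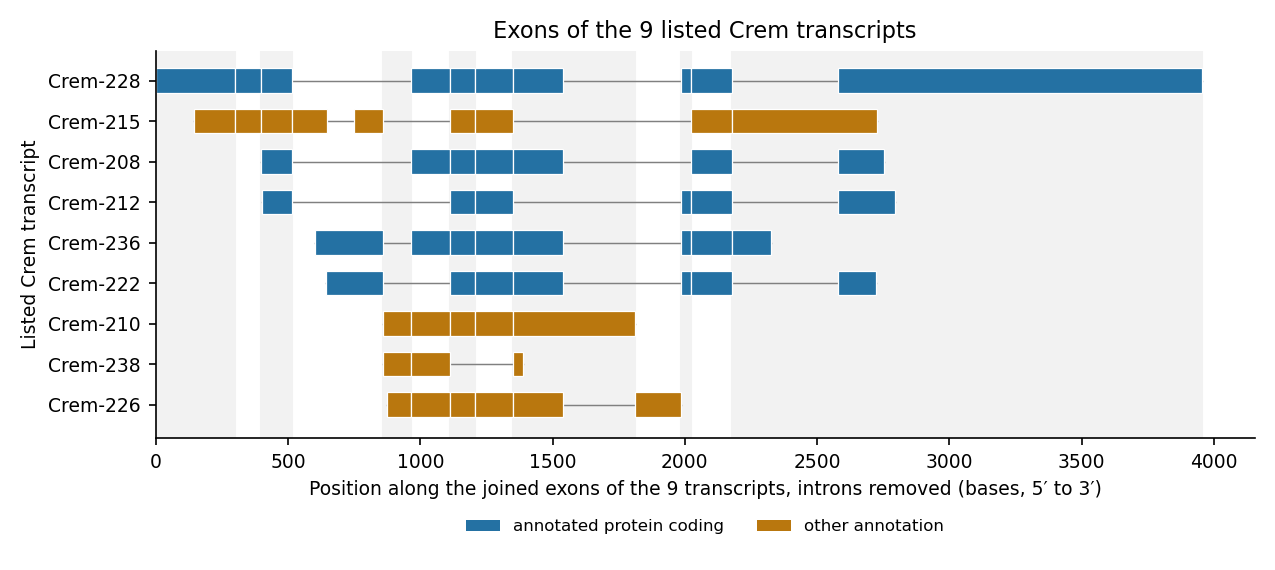
Exons of the 9 listed Crem transcripts, drawn to scale along their joined exons with introns removed (x axis, bases from 5′ to 3′). Blue marks transcripts annotated as protein coding and brown the others, and the 3 lowest rows end before the DNA-binding exon that the 6 rows above them share.

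Crem-222, the transcript with the intermediate start and the second glutamine-rich exon, was the most abundant listed form in WT. It had 180.0 and 325.4 normalized counts in the cKO libraries, against 1041 and 1071 in the WT libraries (estimated reads 222.8 and 406.7 in cKO, 851.5 and 914.0 in WT). Its log2 fold change was -2.06 ± 0.36 (SE; edgeR's quasi-likelihood test, adjusted p = 0.0327), and per length it stood at 15.6 and 27.8 FPKM in cKO and 63.0 and 62.2 FPKM in WT. The groups did not overlap, and the cKO libraries differed more from each other than the WT libraries did. Crem-236, with the same start and both glutamine-rich exons, had 91.0 and 78.9 normalized counts in cKO and 594.9 and 600.2 in WT. It fell by 2.81 ± 0.30 on the log2 scale (adjusted p = 0.0164), with the smallest adjusted p of the 9 transcripts and the closest libraries within each genotype of the coding forms.

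The full-length form Crem-228, with both glutamine-rich exons and the gamma exon, had 112.7 and 178.1 normalized counts in cKO and 660.5 and 758.4 in WT. It fell by 2.29 ± 0.35 on the log2 scale (adjusted p = 0.0255). The other transcript with an upstream start, Crem-215, had 0 and 1.29 normalized counts in cKO and 34.5 and 24.8 in WT (log2 fold change -5.00 ± 0.92, adjusted p = 0.0359). Rounded reads of Crem-215 were 2 over both cKO libraries and 49 over both WT libraries, a ratio of normalized counts of 0.0274 (95% exact interval 0.00323 to 0.104, counting error only). Its log2 fold change was -4.10 without cKO replicate 1 and -7.84 without cKO replicate 2. Crem-215 was thus close to the limit of detection in cKO and the least abundant listed form in WT, at 0 and 0.06 FPKM in cKO and 1.19 and 0.81 FPKM in WT.

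The forms that begin in exon 3 also differed widely between libraries of one genotype. Crem-208, with both glutamine-rich exons, had 29.9 and 63.5 normalized counts in cKO and 158.2 and 254.8 in WT (log2 fold change -2.15 ± 0.52, adjusted p = 0.0691). Crem-212, with neither, had 7.34 and 29.4 normalized counts in cKO and 77.3 and 218.2 in WT (log2 fold change -2.99 ± 0.85, adjusted p = 0.106). Neither passed the threshold, and in both the groups did not overlap. The log2 fold change of Crem-212 was -2.31 without cKO replicate 1, -4.32 without cKO replicate 2, -3.55 without WT replicate 1 and -2.06 without WT replicate 2.

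Of the 3 forms without a coding sequence, Crem-226 passed the test and the other two did not. Crem-226 had 53.8 and 60.2 normalized counts in cKO and 189.9 and 193.9 in WT, and fell by 1.75 ± 0.34 on the log2 scale (adjusted p = 0.0415). Crem-210 had 47.5 and 61.0 normalized counts in cKO and 130.5 and 138.6 in WT (log2 fold change -1.31 ± 0.38, adjusted p = 0.112), the value nearest 0 among the 9. Crem-238 had 25.6 and 20.2 normalized counts in cKO and 104.2 and 57.7 in WT (log2 fold change -1.81 ± 0.52, adjusted p = 0.107). Its FPKM were high for so few reads, at 21.4 and 22.6 in cKO and 58.7 and 40.5 in WT. Its reads, its FPKM and the library totals together imply an effective length of 79.3 and 56.4 bases in cKO and 82.4 and 61.5 bases in WT for this 290-base transcript. Without Crem-238, the summed Crem level was 38.2 and 58.3 FPKM in cKO and 143.3 and 158.1 FPKM in WT, 3.12-fold lower in cKO.

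**Figure D2:**
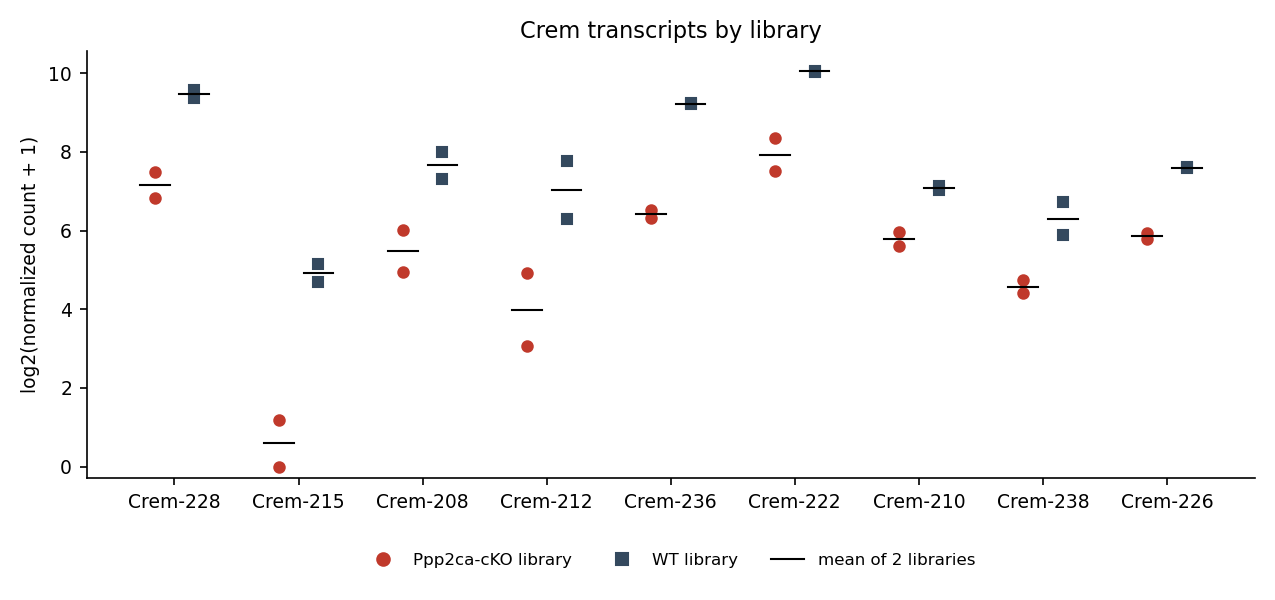
Level of each Crem transcript in each library, as log2(normalized count + 1) on the y axis, with Ppp2ca-cKO libraries as red circles, WT libraries as dark squares and black lines for the mean of 2. In all 9 transcripts both cKO libraries lie below both WT libraries, as in 67.4% of all transcripts tested. Crem-215 is at 0 and 1.29 normalized counts in cKO.

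Of the 9 Crem transcripts, all of which passed the filter, 5 were called lower in cKO (Crem-228, Crem-215, Crem-236, Crem-222 and Crem-226) and 0 higher. All 9 were below an unadjusted p of 0.05, as were 10713 of all 10716 transcripts tested. The table holds only transcripts that the authors had called, so this count carries no information about Crem. DESeq2 called 7 lower, with Crem-208 and Crem-212 added, and 0 higher. Over all 11304 transcripts DESeq2 called 5882 lower and 2042 higher. Among all transcripts tested with edgeR, 41.3% were called lower and 10.4% higher. Both cKO libraries lay below both WT libraries in all 9, as they did in 67.4% of all transcripts tested. The median log2 fold change was -2.15 over the Crem transcripts and -1.70 over all transcripts tested. Minus the median of all transcripts tested, the log2 fold change was -1.11 for Crem-236, -0.59 for Crem-228, -0.36 for Crem-222, -0.05 for Crem-226 and 0.39 for Crem-210.

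The size of these changes depends on the scaling. Library totals in place of the authors' size factors moved the log2 fold changes up by 0.53 (from the ratio of the scale factors). Of the Crem transcripts 4 were then called lower, beside 3238 of all 10655 transcripts tested. TMM, which assumes that most listed transcripts do not change, moved them up by 1.48. Under TMM, 0 Crem transcripts were called with edgeR, and 1233 of all 10553 transcripts were called lower. Of the 9, 2 had an unadjusted p under 0.05, as did 6665 of all, and Crem-210 changed sign to 0.17. Equal summed counts of the Sertoli markers moved the values by -1.33. All 9 were then called lower, beside 7411 of all 10765 transcripts tested. Without either WT library no edgeR call held, for Crem or for the whole table. Without WT replicate 1 or 2 the Crem median was -2.38 or -2.06 in log2, against -1.63 or -1.54 over all transcripts. Without cKO replicate 1 or 2 it was -1.99 or -2.66, against -1.67 or -1.84. Each of these fits leaves 1 library in a group, which is assumed to vary like the other group's.

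**Figure D3:**
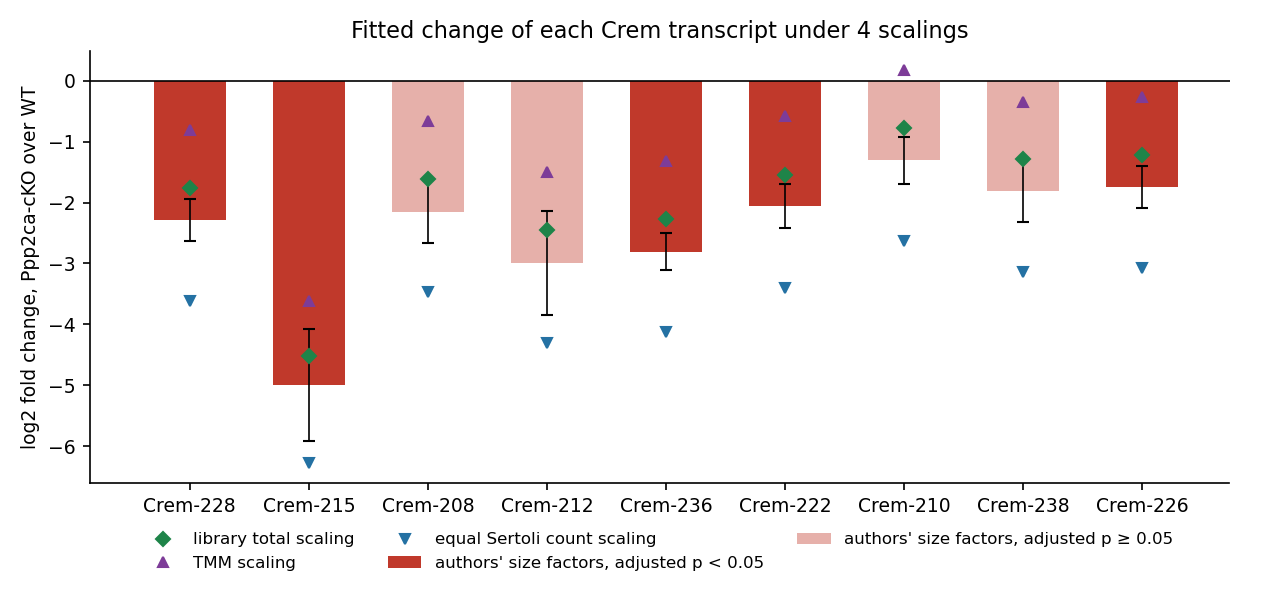
Log2 fold change (Ppp2ca-cKO over WT, y axis) of each Crem transcript. Bars show the edgeR fit with the authors' size factors (error bars, SE; dark bars, adjusted p under 0.05), and symbols show the same fit with library totals (diamonds), TMM (upward triangles) and equal Sertoli marker counts (downward triangles). The order of the transcripts is alike under the 4 scalings while the level moves, and Crem-210 is above 0 under TMM.

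A second test compared each Crem transcript with the gene's other transcripts, where a common scaling cancels. With edgeR's diffSpliceDGE 0 of the 9 passed it, and 1 was at an unadjusted p under 0.05. Of all 5648 transcripts of 2167 genes in that test, 15.3% were called. The smallest adjusted p was that of Crem-215, whose difference was -2.79 in log2 (adjusted p = 0.0513). It missed the threshold narrowly, and over the alternatives its adjusted p ranged from 0.000536 to 0.424. The difference was -2.15 without cKO replicate 1, -5.32 without cKO replicate 2, -2.48 without WT replicate 1 and -3.10 without WT replicate 2. With limma on log2(FPKM + 1) it turned to 0.49. The difference was -0.79 for Crem-212 (adjusted p = 0.580), -0.60 for Crem-236 (adjusted p = 0.633), -0.08 for Crem-228, 0.06 for Crem-208 and 0.14 for Crem-222. It was 0.90 for Crem-210 (adjusted p = 0.409), 0.46 for Crem-226 (adjusted p = 0.900) and 0.40 for Crem-238. All 3 forms without a coding sequence thus had values above 0, and none of them passed.

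Shares of the summed Crem FPKM were also set side by side by start site and exon content. The forms with the intermediate start made up 36.8% and 41.0% in cKO, against 45.5% and 45.3% in WT. The internal forms without a DNA-binding exon made up 52.5% and 42.4% in cKO, against 40.0% and 31.5% in WT. The groups did not overlap in either share (exact permutation p = 0.333 each, the smallest possible). Crem-222 held 26.2% and 34.4% in cKO and 31.2% and 31.3% in WT, so its groups overlapped. Forms with both glutamine-rich exons held 36.5% and 33.2% in cKO and 35.9% and 38.9% in WT, and these overlapped too (exact permutation p = 0.667). All of these shares carry the short effective length of Crem-238. Without it, the intermediate forms held 57.3% and 57.0% in cKO and 64.2% and 56.9% in WT, which overlapped. The internal forms then held 26.0% and 20.1% in cKO and 15.5% and 13.99% in WT, which did not.

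In WT the order of the levels per length was Crem-222 (62.6 FPKM), Crem-238 (49.6), Crem-236 (28.3), Crem-226 (13.9), Crem-228 (13.0), Crem-212 (12.1), Crem-208 (11.5), Crem-210 (8.25) and Crem-215 (1.00), as means of 2 libraries. Crem-212 (6.49 and 17.8 FPKM) overlapped Crem-226, Crem-228, Crem-208 and Crem-210, and Crem-208 (9.03 and 13.9 FPKM) overlapped Crem-226 and Crem-228, so the order among these forms is not beyond their spread. The place of Crem-238 in both orders rests on its short effective length. Its estimated reads were only 31.6 and 25.3 in cKO and 85.2 and 49.2 in WT. In cKO, Crem-238 (22.0 FPKM) and Crem-222 (21.7) overlapped at the top. Crem-226 (5.99), Crem-236 (5.85) and Crem-210 (4.83) followed, then Crem-228 (3.85), Crem-208 (3.79) and Crem-212 (2.21), with Crem-215 (0.03) last. Each neighbouring pair from Crem-226 to Crem-212 in this order had overlapping cKO libraries.

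Crem was also set against single markers of each cell type, as the ratio of summed Crem FPKM to the marker's FPKM, which is free of the scaling between libraries. Only listed markers were used, which the authors had already called, so the ratio restates the changes of Crem and marker given above. The same count over all listed transcripts was not made. The ratio was higher in both cKO libraries than in both WT libraries for 11 of 12 round spermatid markers, and the groups overlapped for Dkkl1, an acrosomal protein. For Acrv1, another acrosomal protein, it was 2.31 and 3.21 in cKO and 1.48 and 1.25 in WT. It was higher in cKO for 11 of 11 elongating spermatid markers. Among 6 spermatocyte markers it was higher in cKO for Pgk2 and Spag6, lower for Hspa2 and Ldhc, and overlapped for Piwil1 and Ccna1. For Pgk2, a germ cell phosphoglycerate kinase, it was 1.28 and 1.33 in cKO and 0.695 and 0.675 in WT. It was lower in cKO for 5 of 5 spermatogonial, 11 of 11 Sertoli, 4 of 4 Leydig and 4 of 4 leukocyte markers. A list's sum need not show the same, since 1 member may hold most of it. Crem equalled 13.0% and 10.5% of the summed round spermatid markers in cKO and 12.2% and 8.12% in WT, which overlapped. Dkkl1 made up 62.2% and 66.8% of that sum in cKO and 27.3% and 38.8% in WT. Without it Crem equalled 34.5% and 31.7% in cKO and 16.8% and 13.3% in WT, which did not overlap. Dkkl1 is the only marker of this list whose ratio was not higher in cKO, so that separation was fixed by leaving it out. The summed round spermatid markers were 458 and 768 FPKM in cKO and 1658 and 2445 FPKM in WT, and the elongating ones were 491 and 2708 FPKM in cKO and 24390 and 27024 FPKM in WT. The cKO libraries differed most in the elongating markers. The part of cell composition in the Crem values was not tested.

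**Figure D4:**
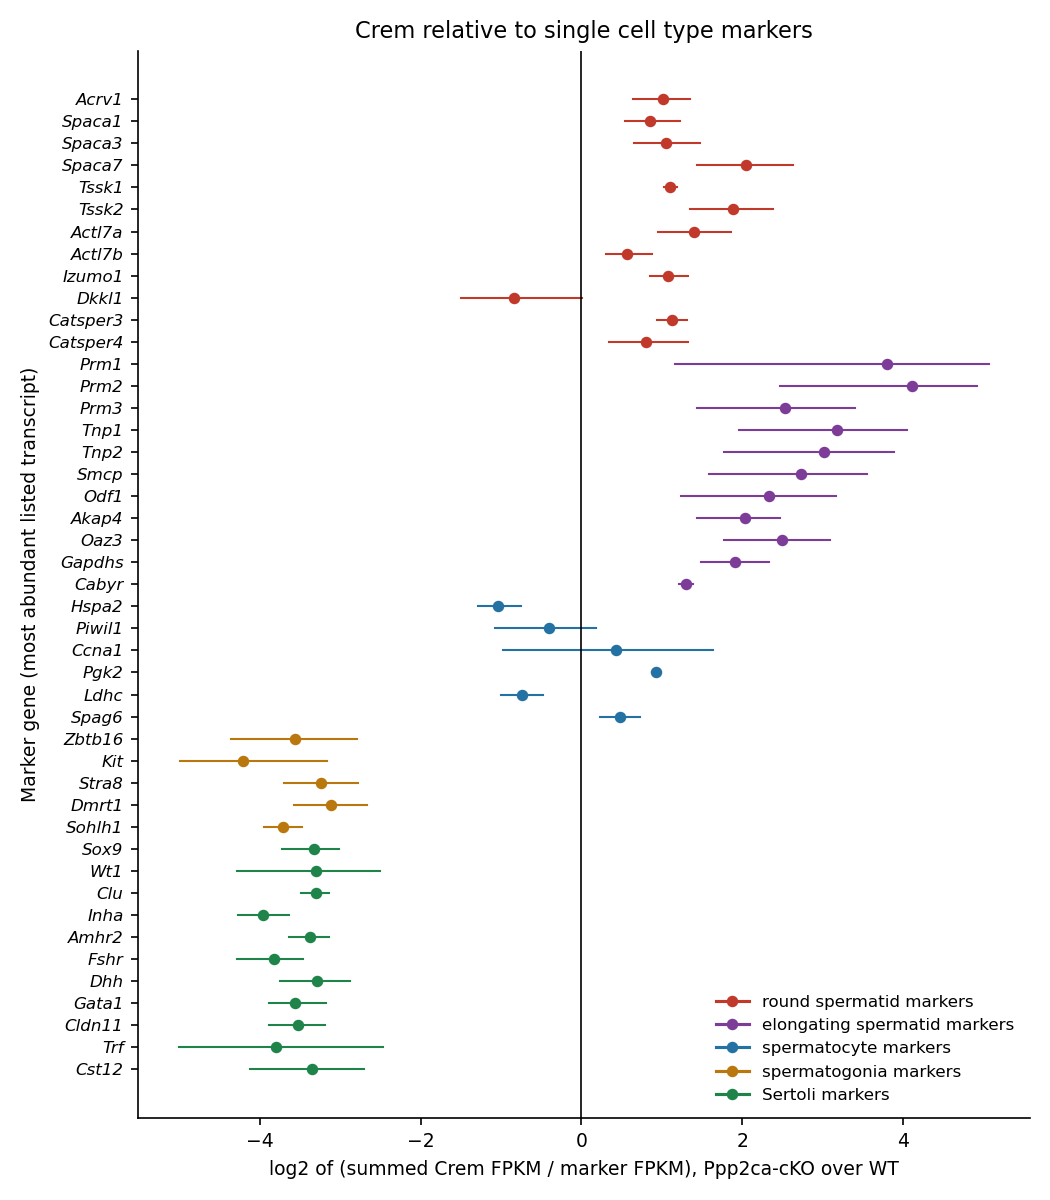
Summed Crem FPKM relative to the FPKM of each marker, as the log2 of that ratio in Ppp2ca-cKO over WT (x axis), with markers on the y axis coloured by list. Points are ratios of means of 2 libraries, and lines run from the lowest to the highest pairing of a cKO with a WT library. The lines lie above 0 for 11 of 12 round spermatid and all 11 elongating spermatid markers, on either side of 0 or across it for the 6 spermatocyte markers, and below 0 for all 5 spermatogonial and 11 Sertoli markers.

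The list of known CREM target genes holds structural and metabolic genes of late germ cells. Of its 10 members, 9 were listed and tested, 7 fell and 0 rose. Over all transcripts tested, 41.3% were called lower and 10.4% higher. The median log2 fold change was -4.37, against -1.70 over all transcripts tested and -4.36 over the 11 listed elongating spermatid markers. All 9 were below an unadjusted p of 0.05, as were 10713 of all 10716 transcripts tested. DESeq2 called 9 lower and 0 higher, and 5882 of all 11304 transcripts lower. Without either WT library no call among the targets held. Their median without WT replicate 1 or 2 was -4.50 or -4.08 in log2. Without cKO replicate 1 or 2 it was -3.71 or -5.92. Of the 10, 6 are also elongating spermatid markers and 1 is a spermatocyte marker, so the list is not independent of stage. Protamine 1 (Prm1), which packs sperm DNA, had 364 and 4149 normalized counts in cKO and 35589 and 57582 in WT (log2 fold change -4.37 ± 1.15, adjusted p = 0.0852) and did not pass, with cKO libraries far apart. Protamine 2 (Prm2) had 412 and 2770 in cKO and 60531 and 55672 in WT (log2 fold change -5.19, adjusted p = 0.0360). The transition protein gene Tnp1 had 269 and 998 in cKO and 21889 and 14331 in WT (log2 fold change -4.84, adjusted p = 0.0246).

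Among the other targets, Tnp2 (log2 fold change -4.61), the sperm tail gene Odf1 (-4.01), the mitochondrial capsule gene Smcp (-4.37), the testis angiotensin-converting enzyme gene Ace (-4.51) and the germ cell lactate dehydrogenase gene Ldhc (-1.33, adjusted p = 0.0340) passed. With TMM or RLE scaling, Ldhc instead stood at 0.16 and 0.23. Camk4, a calcium-dependent kinase found in spermatids, had 12.4 and 136.8 normalized counts in cKO and 1147 and 915 in WT, and did not pass (log2 fold change -3.79, adjusted p = 0.0921). Cyp51 is not listed.

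Promoter windows from RefSeq (GRCm38.p6), reaching from upstream of each start site to just past it, were available for 8 of the 10 target genes (10 windows). They were searched on both strands for the full cAMP response element TGACGTCA and the shorter element TGACG, which overlap. The full element was in 0 of the 10 windows and in 1.79% of 32851 promoters, and the shorter one was in 2 of 10 and in 20.8% of all. A variant with 1 free base, TGANGTCA, was chosen after the windows were read, and it was in 4 of 10 and in 8.83% of all. A match is a description of letters, and no binding was measured. The 30-base stretches that hold the matches to the variant are shown 5′ to 3′ on the gene's strand with the match in capitals. In Prm1 the capitals match the variant when read on the opposite strand. They lie at chr1:73015975-73016004 (Tnp1, minus strand), chr3:92589031-92589060 (Smcp, minus strand), chr11:105975126-105975155 (Ace, plus strand) and chr16:10796869-10796898 (Prm1, minus strand). The match begins 94 bases before the start site in Tnp1, 52 before in Ace and 64 before in Prm1, and it lies just past the start site in Smcp.
Tnp1: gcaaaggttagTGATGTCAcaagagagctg
Smcp: ggagagtattaTGATGTCAtaaaagagctg
Ace: acattgctctaTGAGGTCAcactgcaggct
Prm1: ctggtcctcttTGACTTCAtaattcctagg

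The next lists hold CREM's partners, its relatives and its signalling. As for the targets, no edgeR call among their genes held without either WT library. Of 10 coactivators and testis transcription factors in the list, 5 were listed and tested, 3 fell and 0 rose (median log2 fold change -1.81). Among all transcripts tested 41.3% were called lower, with a median of -1.70, so the list lay near the background. The coactivator gene Fhl5 had 153.7 and 217.5 normalized counts in cKO and 2543 and 2074 in WT (log2 fold change -3.64 ± 0.31, adjusted p = 0.0154). Kif17, a kinesin that moves FHL5 out of the nucleus, had 209.9 and 504.2 in cKO and 4616 and 8672 in WT (log2 fold change -4.22, adjusted p = 0.0216), and 1 of its other listed transcripts rose (9.29 and 15.4 normalized counts in cKO, 0 and 0 in WT). Gtf2a1l, a germ cell form of the general factor TFIIA, fell (log2 fold change -1.81, adjusted p = 0.0208). The CREB-regulated coactivator gene Crtc3 had 862 and 901 normalized counts in cKO and 397 and 416 in WT (log2 fold change 1.12, adjusted p = 0.0535), and with equal Sertoli counts the value turned to -0.21. Tbpl1, a TBP-related factor needed for spermiogenesis, had a log2 fold change of -1.20 (adjusted p = 0.0555), which turned to 0.29 under TMM.

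Of 5 other CREB family genes, 2 were listed, 1 fell and 0 rose, against 41.3% lower and 10.4% higher over all transcripts tested. Creb3l4, a membrane-bound family member of spermatids, had 306 and 552 normalized counts in cKO and 4142 and 4683 in WT (log2 fold change -3.36, adjusted p = 0.0168). An Atf2 transcript had 0 and 10.8 in cKO and 42.3 and 132.3 in WT and did not pass (adjusted p = 0.140). Creb1, Atf1 and Atf4 are not listed.

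Of 16 genes of cAMP and kinase signalling to CREM, 10 were listed and tested, 5 fell and 2 rose, near the background of 41.3% lower and 10.4% higher. The median log2 fold change was -2.05 (-1.70 over all transcripts tested), and it was unchanged with the genes absent from one group set at their bound of 3 counts over that group. The soluble adenylyl cyclase gene Adcy10 had 1514 and 2076 normalized counts in cKO and 9396 and 10698 in WT (log2 fold change -2.48, adjusted p = 0.0168). The protein kinase A regulatory subunit gene Prkar2a (log2 fold change -2.85) and the cyclic nucleotide phosphodiesterase genes Pde1a (-3.35) and Pde4a (-2.31) fell. The ribosomal S6 kinase gene Rps6ka2 rose (log2 fold change 1.39, adjusted p = 0.0311), with a value of 0.06 under equal Sertoli counts. Prkacb, a catalytic subunit of protein kinase A, had 79.0 and 113.6 normalized counts in cKO and 0 and 0 in WT for its leading transcript, at least 53.7-fold higher in cKO, whereas another listed Prkacb transcript had 0 and 0 in cKO and 30.9 and 21.4 in WT. Prkar1b showed the opposite pair, with 0 and 0 in cKO and 53.7 and 66.5 in WT for its leading transcript and 31.3 and 29.6 in cKO and 0 and 0 in WT for another. Both genes thus had listed transcripts in both directions. Adcy3, an adenylyl cyclase, had 33.7 and 11.6 in cKO and 0 and 0 in WT and did not pass (adjusted p = 0.0632).

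**Figure D5:**
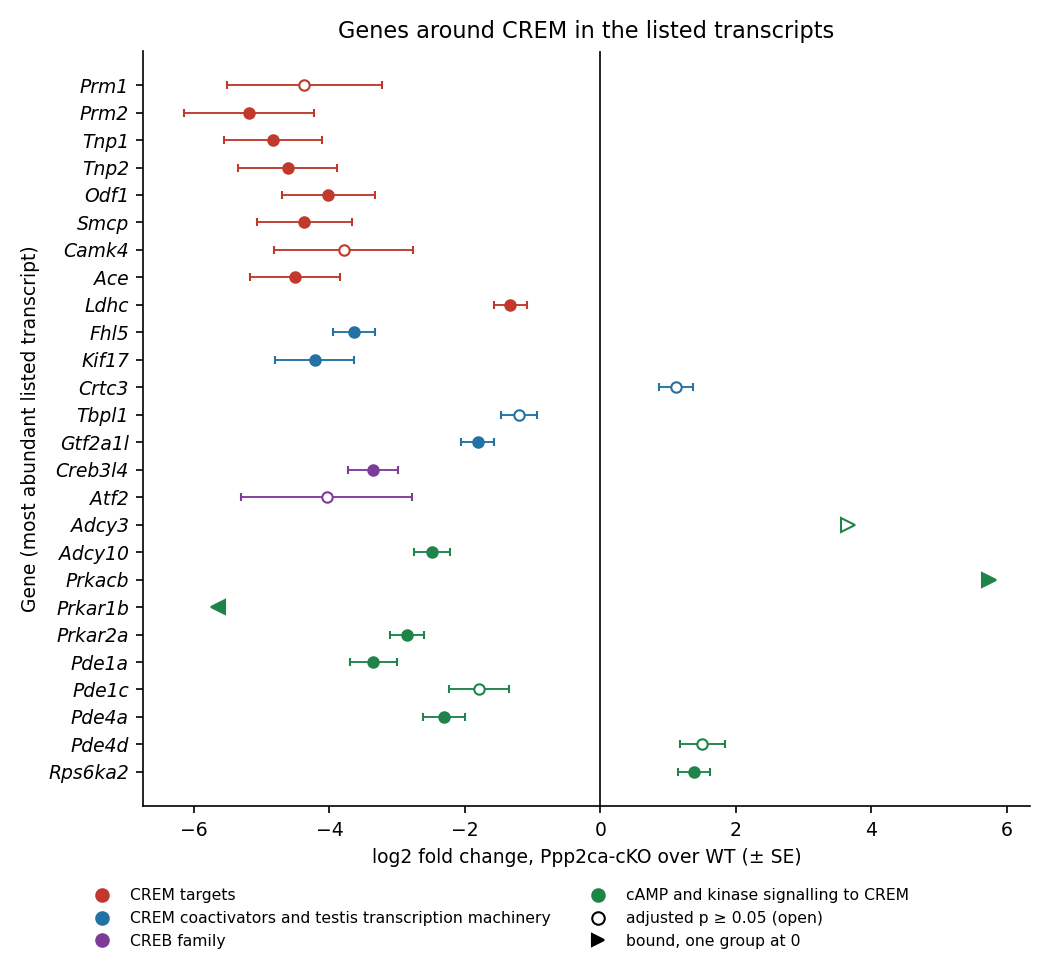
Log2 fold change (Ppp2ca-cKO over WT, x axis, ± SE) of the most abundant listed transcript of each gene in 4 lists around CREM, coloured by list. Filled symbols passed an adjusted p of 0.05, triangles mark bounds where one group is at 0, and the CREM targets lie between -5.19 and -1.33.

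The genes whose leading transcripts were most like Crem-222 over the 4 libraries were Arfgef2, an exchange factor for ADP-ribosylation factors, Gcc1, a Golgi coiled-coil protein, Ell2, a transcription elongation factor, Atxn7l1 and the keratin gene Krt78. Likeness was the distance between mean-centred log2(normalized count + 1) values. These 5 lay at 0.05 to 0.11 from Crem-222, against a median of 1.77 over 7112 leading transcripts, and 328 lay within 0.5. Ell2 had 244.6 and 436.6 normalized counts in cKO and 1341 and 1500 in WT, and Gcc1 had 149.4 and 255.2 in cKO and 807 and 849 in WT. As in Crem-222, the second cKO library was the higher in both, which follows from choosing them by likeness over these same 4 libraries.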

How the data were processed

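RNA from testis was sequenced in 4 TruSeq libraries, 2 per genotype. Per the file headers, the authors' table gives expected counts (estimated, not whole) and FPKM per Ensembl transcript, the authors' mean normalized count (a signal over the 4 libraries), and their log2 fold changes and deposited p-values. A test score (the fold change over its standard error) was deposited by the authors too and is not used here. The submitters' processing notes name mm9, but gene coordinates in the table were identical to GENCODE vM21 (GRCm38) for 98.52% of transcripts whose gene is there. The aligner is not given in the sources used here, nor is the counting tool.

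Size factors were recovered from the deposited mean normalized counts. Rounded expected counts that passed filterByExpr (minimum count 10) went into edgeR 4.0.16 under R 4.3.3, with genotype as the factor in glmQLFit and glmQLFTest, the Benjamini-Hochberg adjustment over the 64840 transcripts the authors tested and a threshold of 0.05. Spread was estimated on transcripts already called by the authors, which lowers it. Isoform differences used diffSpliceDGE on the same fit. Single values used exact permutation tests over samples (scipy 1.17.1). Alternatives used limma 3.58.1, DESeq2 1.42.0, other scalings, no filter, a replicate block and each library left out. The fits were tested on simulated data. Intervals cover counting error only, because PCR copies of a molecule were not marked.

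The members and gene lists were chosen with earlier results of these data known. Named were all listed Crem transcripts, Ppp2ca, Ppp2cb, listed members of the 4 pathway lists, and the 5 genes nearest Crem-222. For each other gene, the transcript with the highest mean normalized count was used. Promoter windows are from RefSeq, and the stretches that match the shorter element are not reported here. Replicates of a genotype differed with an SD of 0.914 (cKO) and 0.70 (WT) in log2 over transcripts.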

Additional observations from a re-analysis of the deposited data

How the results depend on the processing

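For single Crem transcripts, 126 comparisons with an alternative left 79 on the same side of the threshold in the same direction, 33 no longer passed, 12 newly passed and 2 reversed. Both reversals were in Crem-210, to 0.17 (TMM) and 0.24 (RLE). The cause of each change below was not tested. Over all transcripts tested, the number called lower was 4431 of 10716. It became 1233 of 10553 under TMM, 1302 of 10568 under RLE and 7411 of 10765 with equal Sertoli counts. With limma at 0.01, 0.1 and 1 it was 1931, 2741 and 3356 of 10716. The number of Crem transcripts called lower, 5, became 0 under TMM and RLE, 9 with equal Sertoli counts, and 1, 2 and 3 with limma on log2(FPKM + 0.01), + 0.1 and + 1, and ran from 0 to 7 with one library left out. Isoform differences called (0) became 1 (Crem-215) under TMM, RLE, library totals, equal Sertoli counts, the replicate block and limma at 0.01 and 0.1, and ran from 0 to 1 with one library left out. DESeq2 was not run for isoform differences. With the authors' size factors the isoform test called 866 of all 5648 transcripts, and the matching numbers under the alternatives are not given here. CREM targets called lower, 7, became 4 under TMM and 0 and 4 with limma at 0.01 and 0.1, and ran from 0 to 9 with one library left out. Partners and signalling genes called lower (9) ran from 0 to 12, and those called higher (2) from 0 to 4, with one library left out. Those called higher became 5 under TMM, RLE, library totals and DESeq2, 1 with equal Sertoli counts and 4 under each limma fit. Among all transcripts tested, the number called higher was 1113 of 10716. It became 3606 of 10553 under TMM, 3650 of 10568 under RLE and 2963 of 10655 with library totals. It was 325 of 10765 with equal Sertoli counts, 2042 of 11304 with DESeq2, and 1395, 2123 and 2667 of 10716 with limma. The ranges with one library left out have no matching count over all transcripts here. The log2 ratio of summed Crem FPKM, -1.51, ran from -1.75 to -1.31, and was -1.64 without Crem-238, an alternative chosen after seeing the data.

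The labels do not say that replicate numbers pair the samples. Mean fragment length followed the number, at 214.1 (cKO) and 211.0 (WT) bases for replicate 1 and 241.1 (cKO) and 234.7 (WT) bases for replicate 2. Across the transcripts that passed the filter, the log2 difference between replicates 1 and 2 in cKO correlated at 0.136 with that in WT. With the replicate block, 5 Crem transcripts were called lower, Crem-215 (adjusted p = 0.116) and Crem-226 (0.0520) no longer passed, and Crem-208 (0.0367) and Crem-212 (0.0308) newly passed. The number of all transcripts called lower was 3912 with the block, against 4431 without it. Depth limits Crem-215 most, with 2 rounded reads over the cKO libraries.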
